A study of Mus musculus with 4 samples.

Results

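The genes described here encode the proteins of the cytosolic ribosome, the particle that translates messenger RNA. They were chosen by symbol: Rpl or Rps followed by a number, with at most 1 closing letter a, x or l, and Rplp0, Rplp1, Rplp2 and Rpsa. The rule found 83 genes of the 50600 in the tables, 51 of the large subunit and 32 of the small subunit, on 19 chromosomes. Of these, 67 shared no exon base with a gene on the other strand and 16 shared between 14 and 953 bases with 18 such features. The 2 sets were read apart for median levels and for differences in replicate 4. Some shares, counts of calls and lists below pool both.

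RNA came from T-helper 2 primary cells of C57BL/6NJ mice, the CD4 T cell subset known for interleukin-4. There were 4 RNA-seq libraries of 1 group, replicates 1 to 4, with no control and no second condition, so nothing below compares treatments. The labels tied all 4 to the same donor record, gave no age and recorded sex as not collected, and named no treatment, while a path in the file headers named 24 hours. Nothing said that the replicates came from separate mice or cultures, so a p-value here speaks only of the variation among the 4 samples, part of which may be technical. The chi-square per degree of freedom over members was 2.20 to 2.82 between replicates 1, 2 and 3, and 14.5 to 19.0 between each of them and replicate 4, so no library repeated another.

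A cytosolic ribosome holds 1 copy of most of its proteins, with the acidic stalk proteins present in more. Their messenger RNAs are among the most abundant in growing lymphocytes. Most of these messengers begin with a run of C and T bases, the 5′ terminal oligopyrimidine motif, through which mTOR and the binding protein Larp1 control their translation. The copies left in the genome by reverse transcription make this family rich in pseudogenes.

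Library totals ran from 1804217 to 2711948 counts, and the limit that a count of 0 allows (3 counts) from 1.11 to 1.66 CPM, the count scaled to a fixed library total. Genes with a gene opposite held between 92.2% and 95.9% of the counts of each library, so a count is given here as that of a gene on the strand the counting selected, not as its expression. Which strand the library kit marks is not given in the sources used here. Whether strand setting 1 counted the genes' own strand was not tested, and had it counted the other, counts of a feature such as Tlcd1 would hold reads of the gene opposite it, such as Rpl23a. This bears on every level, order and ratio below. The ribosomal RNA gene CT010467.1 took 28.6% of the counts of replicate 3 and 14.4% of those of replicate 4, against 1.02% and 1.14% in replicates 1 and 2. All 7 T cell markers had counts, summing to between 21.7 CPM in replicate 4 and 111 CPM in replicate 2. Among the T helper 2 markers, Il4 had 24, 21, 25 and 26 counts in replicates 1 to 4 and Gata3 had 20, 47, 44 and 22, Il1rl1 was at 0 in all, and Il5 and Il13 had 1 count each over the 4 libraries. Of the macrophage list, Lyz2, Adgre1 and Itgam were at 0 while Csf1r, which has a gene opposite, had 983 to 1026 counts. Ms4a1 and Cd79b of the B cell list, Cd8a of the CD8 and NK list, and Hba-a1 and Hbb-bs of the erythroid list were also at 0. Not all markers of these lists were: 4 of 5 B cell, 3 of 4 CD8 and NK, 3 of 4 erythroid and 3 of 5 macrophage markers were. The rest summed to 4.42 to 8.12, 1.11 to 2.22, 12.5 to 21.1 and 374 to 576 CPM in that order. The T helper 2 list summed to 101 to 158 CPM. Most of that sum came from a marker not named above, which has a gene opposite and had 170 to 223 counts. Whether other cells were present was not tested.

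Coding bases that Rpl23a and Rpl35 share with a feature on the other strand are shown first, because those features held 7688 counts or more in every library. Each sequence is the longest such coding block, on the member's own strand, from GENCODE M21 transcripts on GRCm38. Capitals mark the shared bases and lower case the coding bases beside them in the same exon.
Rpl23a (chr11:78181417-78181593, minus strand, exon 3 of 5): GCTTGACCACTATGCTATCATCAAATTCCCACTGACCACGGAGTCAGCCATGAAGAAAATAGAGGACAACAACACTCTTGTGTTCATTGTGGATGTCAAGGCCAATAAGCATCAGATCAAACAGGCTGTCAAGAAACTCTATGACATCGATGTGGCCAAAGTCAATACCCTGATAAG
Rpl35 (chr2:39001619-39001712, minus strand, exon 4 of 4): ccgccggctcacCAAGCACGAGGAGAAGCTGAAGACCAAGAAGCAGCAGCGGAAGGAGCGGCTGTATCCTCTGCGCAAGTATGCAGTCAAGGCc
The block has 177 shared bases in Rpl23a, opposite Tlcd1, and 81 in Rpl35, opposite Wdr38.

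Windows around annotated starts are shown for members without a gene opposite, since that is where the oligopyrimidine run would lie. RefSeq (GRCm38.p6) gave 73 windows for 61 of the 83 members. Within 20 bases either side of the start, on the gene's own strand, the longest run of C or T had a median of 7 bases, against 5 over all 32851 windows. A run of at least 8 was in 31 member windows (42.5%, against 16.0% of all windows), and the letters CTTTCC were in 11 (15.1%, against 1.95%). The first 3 windows below are the highest members with an entry, and the last 3 the members furthest below the other libraries in replicate 4. Capitals mark the longest run.
Rps24 (chr14:24490733-24490772, plus strand): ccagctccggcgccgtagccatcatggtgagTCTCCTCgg
Rpl4 (chr9:64173367-64173406, plus strand): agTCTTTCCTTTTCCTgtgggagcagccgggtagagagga
Rps15 (chr10:80292411-80292450, plus strand): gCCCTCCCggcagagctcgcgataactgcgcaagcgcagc
Rpl10 (chrX:74270796-74270835, plus strand): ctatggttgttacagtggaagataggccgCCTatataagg
Rps13 (chr7:116334171-116334210, minus strand): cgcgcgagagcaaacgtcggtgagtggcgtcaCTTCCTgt
Rps4x (chrX:102189372-102189411, minus strand): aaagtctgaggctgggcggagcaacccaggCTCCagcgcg
Runs were 14 bases in Rpl4, 7 in Rps24 and Rps15, 6 in Rps13, 4 in Rps4x and 3 in Rpl10. The RefSeq start lay 35 bases from that of the principal GENCODE transcript in Rps24, 22 in Rps15, 12 in Rpl4, and 3 to 5 in the other 3. With 20 bases either side, the windows of Rps24 and Rps15 do not hold the principal start. Their marked runs are therefore not at that start. The other windows hold it, but need not hold the first base transcribed in these cells.

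Nearly every ribosomal protein gene had counts, but together they made up a small part of each library. Their summed share was 0.476%, 0.547%, 0.393% and 0.182% of the counts in replicates 1 to 4, or 0.399% ± 0.158 (SD, n = 4). A count was seen for 81 members, and 74 had a mean count of at least 10. The lowest share was in replicate 4, and leaving out that library gave 0.472% ± 0.0768.

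Levels are given in TPM, the count divided by exon length and then scaled so that all libraries sum alike, and were tested against 1 TPM with limma on log2(TPM + 0.1). With Benjamini-Hochberg adjusted p under 0.05, 75 of the 81 members with a count were above 1 TPM and 2 were below. Over all 17203 genes tested, 32.1% were above and 26.6% below. Members without a gene opposite were above in 59 cases and below in 2, where 18.7% of all such genes were above and 32.4% below. All 16 members with a gene opposite were above, where 57.3% of such genes were above and 15.7% below. Against 5 TPM, 62 members were above, against 19.3% of all genes.

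The median level of the 67 members without a gene opposite was 29.6, 36.9, 26.4 and 6.00 TPM in replicates 1 to 4. On the log2(TPM + 0.1) scale this was 4.36 ± 1.18 (SD, n = 4), beside -0.58 ± 0.58 for all 11233 genes with a count and no gene opposite. The 16 members with a gene opposite had medians of 43.8, 46.5, 37.2 and 19.4 TPM, 5.13 ± 0.58 on the log2 scale, beside 2.20 ± 0.20 for the 5970 such genes. Replicate 4 had the lowest median in both sets.

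**Figure D1:**
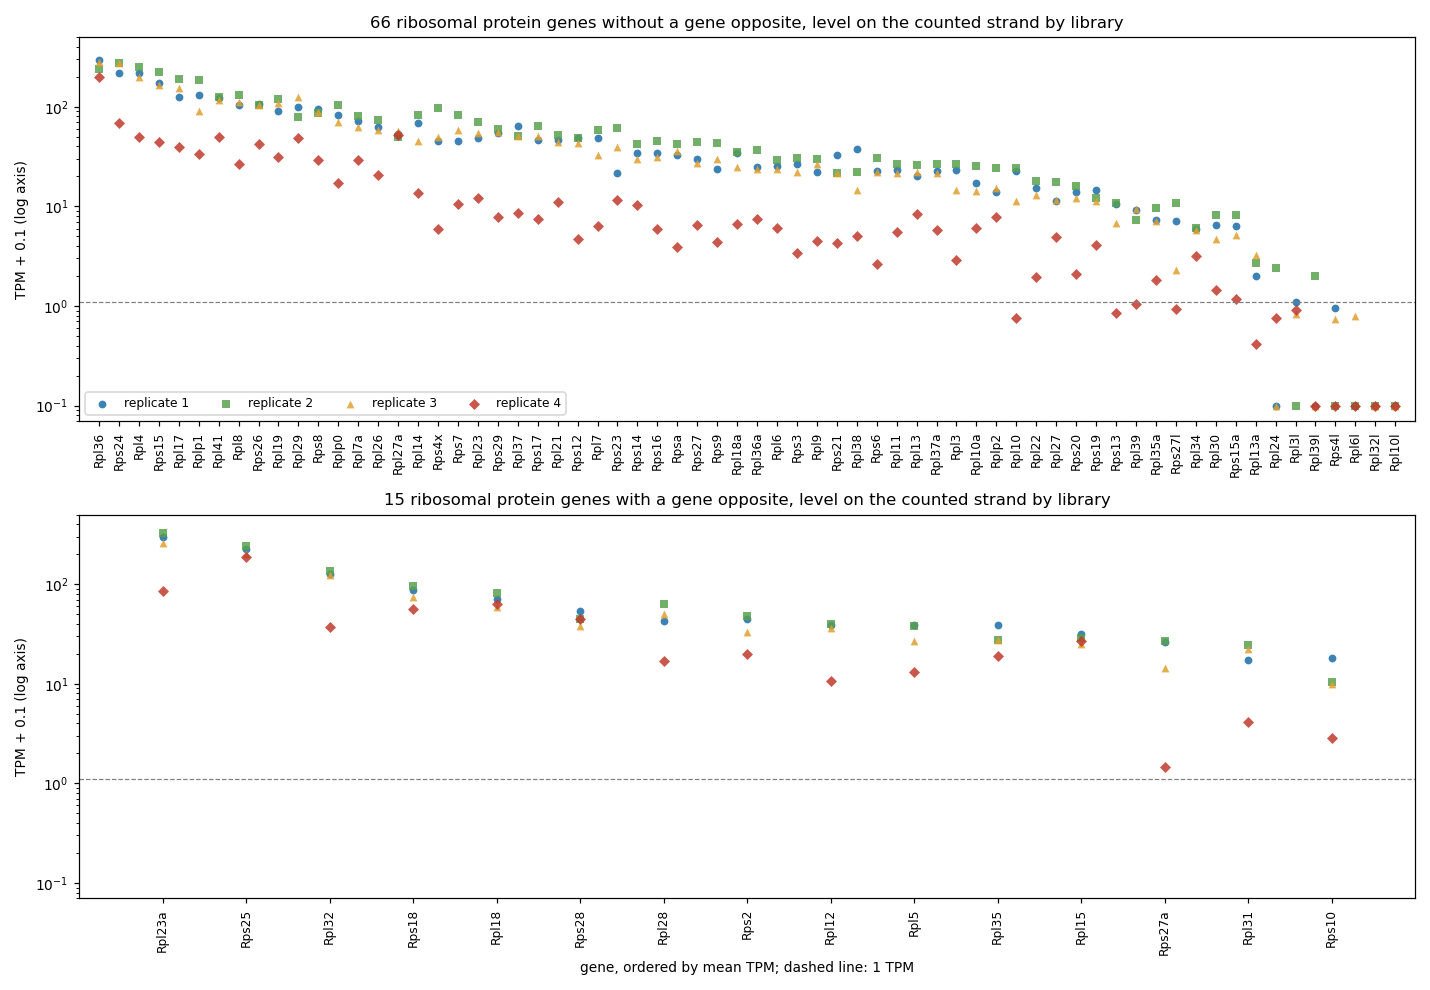
TPM + 0.1 of ribosomal protein genes in each library (log axis), the genes ordered by mean TPM, 66 without and 15 with a gene opposite; each point is 1 library and the dashed line marks 1 TPM. Replicate 4 lies under the other 3 for most genes, while Rpl36, Rpl27a, Rps25, Rps28, Rpl18 and Rpl15 keep the 4 points together.

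Levels differed widely between members of the same particle. In mean TPM, 17 of the 67 members without a gene opposite were over 50, 35 between 10 and 50, 8 between 1 and 10 and 7 at 1 or less. Rpl36, a large-subunit protein, was the highest at 254 ± 42.1 TPM (SD, n = 4). Its levels were 295, 239, 279 and 201 TPM in replicates 1 to 4, so that no library stood far apart, and its level was 7.83 ± 0.122 (SE) over 1 TPM on the log2 scale (limma adjusted p = 5.1e-11). It has an exon length of 404 bases and 81.1% of its 50-base words occur in transcripts of other genes. The gene Lonp1 lies 58 bases past its 3′ end on the other strand, with 32, 39, 61 and 27 counts.

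Rps24, a small-subunit protein mutated in Diamond-Blackfan anaemia, had 218, 276, 278 and 68.8 TPM in replicates 1 to 4, a mean of 210 ± 98.3. Rpl4, which reaches into the exit tunnel, had 218, 248, 201 and 50.3 TPM. Rps15, of the head of the small subunit, had 171, 223, 165 and 43.8 TPM. In these 3 genes replicate 4 lay under all other libraries, and the same held for Rpl17, at 127, 191, 153 and 39.0 TPM. In the order Rps24, Rpl4, Rps15, Rpl17, neighbouring means differ by less than their SDs, which were 98.3, 88.2, 75.8 and 64.7 TPM.

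The ribosomal stalk recruits the elongation factors. Rplp0, its base, had 81.7, 105, 70.5 and 17.0 TPM, and Rplp1, which pairs with Rplp2, had 132, 184, 90.6 and 33.7 TPM. Rplp2 had 13.7, 24.1, 15.1 and 7.79 TPM, so that each library gave less of it than of Rplp1. Rpl12, which sits beside the stalk base and has a gene opposite, had 38.8, 39.9, 36.2 and 10.7 TPM. All 4 were above 1 TPM, and replicate 4 was the lowest library in each.

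Rpl5 and Rpl11 bind the 5S ribosomal RNA and, outside the ribosome, the p53 inhibitor Mdm2. Rpl11 had 76, 91, 96 and 22 counts, a level of 19.1 ± 9.38 TPM. Rpl5, which has a gene opposite, had 187, 189, 176 and 76 counts, a level of 29.3 ± 12.1 TPM. Rpl5 had the higher TPM in each library, but the ranges of both genes over the 4 libraries overlapped, and both were lowest in replicate 4.

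Members with a symbol ending in l, among them second copies with a restricted tissue range, had few or no counts. Rpl10l, a testis copy of Rpl10, had 0 counts in all 4 libraries, as had Rpl32l. Rpl39l, another testis copy, had 2 counts, all in replicate 2, and Rpl3l, the copy of striated muscle, had 2, 0, 2 and 2. Rps4l had 1 count in each of replicates 1 and 3, and Rpl6l 1 count in replicate 3. In the limma test Rpl6l and Rpl39l were called below 1 TPM (adjusted p = 0.0059 and 0.039), while Rpl3l and Rps4l were not called (adjusted p = 0.24 and 0.067). The call of Rpl39l was lost without replicate 1, 3 or 4 (adjusted p = 0.15, 0.18 and 0.12), with a pseudocount of 1 (0.088) and with TPM scaled without CT010467.1 and mitochondrially encoded genes (0.059). In each library the counts of these genes lie under the 3 counts that a count of 0 allows, and 2 counts of Rpl39l were worth 1.91 TPM. Within a library, counting error thus does not separate any of them from 1 TPM, and the calls below it are not firm. Counting error over the libraries together was not worked out. Rps27l, a p53-responsive copy of Rps27, had 7, 11, 3 and 1 counts and was called above 1 TPM (adjusted p = 0.034), a call lost on leaving out replicate 1, 2 or 3.

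A pair of ordinary subunit genes also had almost no counts. These were chosen after their values were seen. Rpl24 had 0, 3, 0 and 1 counts and Rpl13a had 5, 7, 11 and 1. Neither differed from 1 TPM by the limma test (adjusted p = 0.16 for Rpl24 and 0.37 for Rpl13a). On the same strand, Rpl24 shares 484 exon bases with Gm28037, and Rpl13a shares 621 with Gm45713, 594 of them coding. Reads that fall in both genes of such a pair are counted for neither under the setting in the headers. Of all members, 26 share exon bases with 37 same-strand features, 30 of them small nucleolar RNAs, and 35 of the 37 features had 0 counts.

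Copies elsewhere in the genome can also take or lose reads. The 80 members with a principal transcript shared a median of 46.3% of their 50-base words with transcripts of other genes, and 37 shared over 50%. Rpl39l and Rpl3l shared 0 words. The 273 rows named as ribosomal protein pseudogenes held 93, 128, 130 and 76 counts in replicates 1 to 4, and 219 of them were at 0 in all libraries. For such members the count is uncertain, since the headers show no counting of multiply placed reads. Across the 80 members, which share libraries and depth, Spearman's rho of the share of words with mean TPM was 0.12.

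On the other strand, the 18 features opposite the 16 paired members held many more counts than the members did. They summed to 57083, 56527, 59870 and 55548 counts in replicates 1 to 4, and the 16 members to 2862, 3140, 3300 and 2000. The features therefore took 2.75% ± 0.447 of all counts (SD, n = 4). They were 21.0 ± 4.62 times the members, with 27.8 in replicate 4 and at most 19.9 in the others. Most of these counts lay in the 3 features that share coding bases of their member. Those had mean counts of 8610 or more, and no other feature had a mean above 2395. The share and the ratio thus rest largely on those 3. Of the 18 features, 9 were above their member in every library. High opposite counts were not particular to these genes: of all 6146 genes tested with all their opposite features, 42.5% had the higher count opposite (limma, adjusted p under 0.05).

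Tlcd1, a membrane protein gene, lies opposite Rpl23a, a protein of the tunnel exit that binds the signal recognition particle. Tlcd1 had 17954, 18030, 18026 and 19631 counts, and Rpl23a had 310, 347, 368 and 108. The 506 shared exon bases include 259 coding bases of Rpl23a. The log2 ratio was 6.17 ± 0.367 (SE, limma adjusted p = 4.4e-05) when features opposite more than 1 gene were kept, of which Tlcd1 is a case.

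Rpl35, another protein at the tunnel exit, lies within Wdr38 and shares 821 exon bases with it, 105 of them coding. Wdr38, a WD repeat gene, had 8007, 7688, 8400 and 10344 counts, against 59, 43, 56 and 35 for Rpl35. Arpc5l, which shares 62 bases at the 5′ end, had 32, 27, 29 and 32 counts. The log2 ratio of both features to Rpl35 was 7.49 ± 0.237 (SE, limma adjusted p = 1.5e-05). With features that share even 1 base with another gene left out, only Arpc5l was kept and the ratio turned to -0.65.

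Rpl15, of the large subunit, has 0 bases of its principal transcript in common with Nkiras1, a Ras-like inhibitor of NF-kB signalling. Nkiras1 had 2347, 2365, 2567 and 2301 counts and Rpl15 had 92, 87, 100 and 95, so that both were close in all 4 libraries. Nkiras1 shares 718 exon bases with other genes as well. Rpl32, of the large subunit, had 150, 166, 199 and 53 counts, against 1929, 2064, 1405 and 1382 for Cand2, which binds cullins and shares 53 bases at its 3′ end. The log2 ratio for Rpl32 was 3.71 ± 0.328 (SE, limma adjusted p = 0.00019).

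Counts of the opposite features differed with the bases they shared. The 3 that share coding bases had mean counts of 8610 or more. The 8 that share only non-coding bases of the principal transcript ran from 3 to 1695, with a median of 372, and the 7 that share none of it from 0.25 to 2395, with a median of 22.8. By position, the 8 features at a member's 3′ end had a median of 568 and 6 of them exceeded the member, while the 8 at the 5′ end had a median of 56.9 and 2 exceeded it. These classes are small and were formed after the values were known, so no test was made. The same shares over all genes were not computed by class.

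Among the features at 3′ ends, Fam69a had 523 to 794 counts opposite Rpl5, Tbc1d8 400 to 484 opposite Rpl31, and Ube2s, a ubiquitin-conjugating enzyme of mitosis, 363 to 468 opposite Rpl28. Rps25, a small-subunit protein used by some viral internal entry sites, had 750, 817, 906 and 752 counts. Ccdc84 at its 3′ end had 369, 352, 291 and 288, and Trappc4 at its 5′ end had 83, 89, 85 and 104. Rps28 likewise had 96, 83, 93 and 98 counts, against 31, 19, 18 and 23 for Kank3 at its 3′ end. At 5′ ends, Sphk2, a sphingosine kinase, had 78, 101, 83 and 106 counts opposite Rpl18, Vps52 had 15, 15, 21 and 9 opposite Rps18, and Lrsam1 had 2, 3, 5 and 2 opposite Rpl12. Rpl18 had 351, 415, 391 and 379 counts and Rps18 had 270, 299, 309 and 209. These 3 members thus had more counts than the feature opposite in each library, on the strand counted. Which strand the reads came from was not tested.

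A feature was kept here if it shared at least 50 exon bases with the member and under 50 with any other gene opposite it. Over the 12 members with such a feature, the opposite count was above the member's in 6 and below in 5 (limma, adjusted p under 0.05). Of all 4937 such genes, 38.4% and 39.8% were above and below. Above were, among others, Rpl35, Rpl31, Rpl32, Rpl5 and Rpl28, and below were Rps25, Rps28, Rps18, Rps10 and Rpl12, with log2 ratios such as -5.41 for Rpl12 and 7.49 for Rpl35. Rps27a, which encodes ubiquitin fused to a ribosomal protein, was not called, at 1.44 ± 0.781 (SE, adjusted p = 0.15). The member counts were thus near the background shares. With all opposite features, 15 members were tested, 8 above and 6 below, against 42.5% and 37.2% of 6146 genes.

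**Figure D2:**
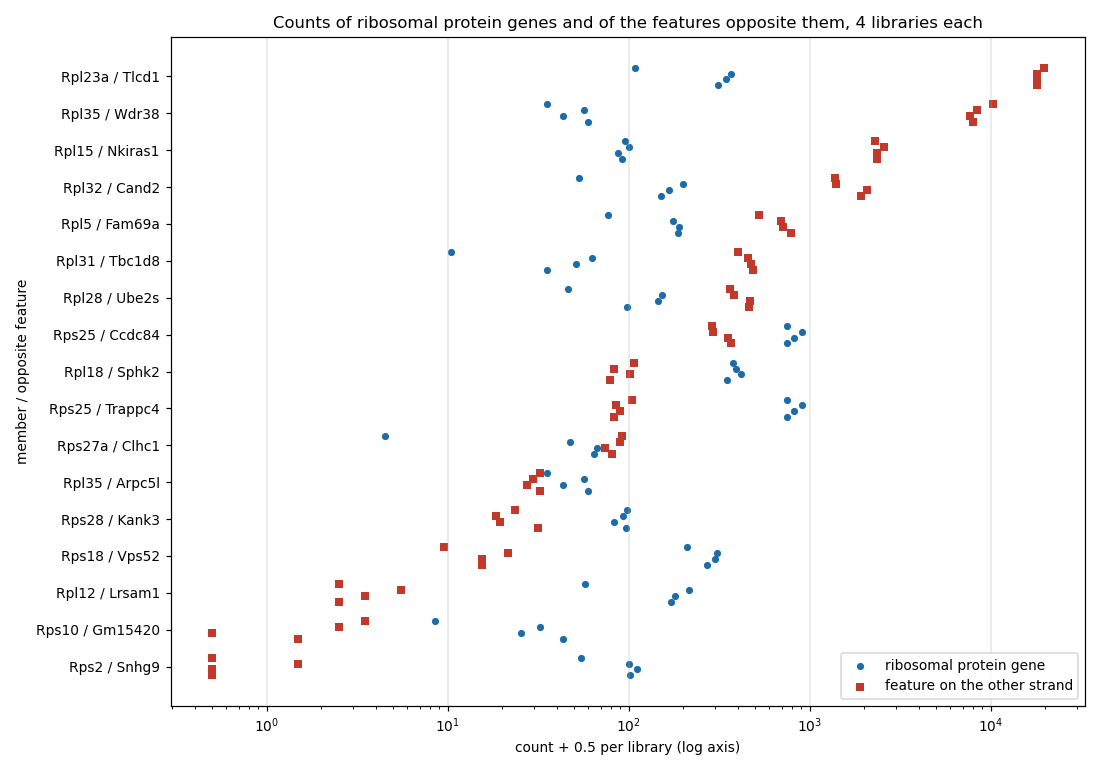
Counts + 0.5 (log axis) of 15 ribosomal protein genes (circles) and of the 17 features opposite them (squares), 4 points each for replicates 1 to 4 from bottom to top within a row, ordered by the mean count of the feature. Tlcd1 opposite Rpl23a and Wdr38 opposite Rpl35 have 7688 counts or more in every library, and those opposite Rpl12, Rps10 and Rps2 stay at 5 or fewer.

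Replicate 4 had fewer counts of most ribosomal protein genes than the other libraries. Of the 74 members that averaged at least 10 counts, it had the fewest CPM in 57 of 58 without a gene opposite, the exception being Rpl27a, and in 12 of 16 with one. Log2 CPM in replicate 4 was then set against the mean of replicates 1 to 3, where each of those held at least 10 counts. It was more than 1 lower in 54 of 58 members without a gene opposite, against 55.9% of all 2115 such genes, and in 9 of 16 members with one, against 10.4% of 3348. The median difference of the 58 was -2.07, beside -1.24 for all such genes, and that of the 16 was -1.43, beside -0.06. Replicates 1 to 3 were also set against each other, without replicate 4, a comparison added after the data had been seen. More than 1 lower than the other 2 were 1 of 58 members without a gene opposite in replicate 1, 0 in replicate 2 and 2 in replicate 3, against 4.2%, 1.37% and 15.8% of such genes. With a gene opposite it was 0, 0 and 1 of 16 members, against 1.29%, 0.729% and 7.77%.

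T cell markers moved with it, summing to 85.9, 111, 57.2 and 21.7 CPM in replicates 1 to 4, while Il4 had 24, 21, 25 and 26 counts. The part of RNA quality, of other cells or of the library itself in the low counts of replicate 4 was not tested. In bulk RNA, fewer cells of a type and less RNA per cell cannot be told apart. With TMM library sizes, the median of all 5463 genes moved from -0.20 to 0.01, and 53 of the 58 members were more than 1 lower, with a median of -1.85, against 50.4% of such genes.

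The size of the difference varied between members. Rpl10, which joins the large subunit late and lies near the peptidyl transferase centre, had 57, 63, 38 and 2 counts. Rps27a had 64, 66, 47 and 4, and Rps13 had 35, 36, 30 and 3. Rps4x, the X-linked S4 protein, had 90, 202, 134 and 14 counts (9.71-fold lower in replicate 4), Rps12 122, 124, 145 and 14 (9.37-fold), and Rpsa, the laminin receptor precursor, 129, 169, 188 and 18 (9.04-fold). Folds are from CPM with a prior count of 0.5. Rps6, the target of S6 kinase, had 44, 61, 58 and 6.

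At the other end, Rpl27a had 180, 172, 265 and 216 counts, Rps28 96, 83, 93 and 98, and Rpl15 92, 87, 100 and 95. Rpl18 was 1.06-fold lower in replicate 4, Rps25 1.14-fold, Rpl36 1.29-fold, Rps18 1.46-fold and Rpl35 1.55-fold. Of the eligible members not more than 1 lower, 7 have a gene opposite (Rps28, Rpl15, Rpl18, Rps25, Rps18, Rpl35 and Rps2) and 4 have none (Rpl27a, Rpl36, Rpl34 and Rpl29). By subunit, 23 of 23 eligible small-subunit members without a gene opposite were more than 1 lower, with a median of -2.45. Of the large subunit it was 31 of 35, with a median of -2.02. Over all 2115 eligible genes without a gene opposite it was 55.9%, with a median of -1.24. These medians were not tested against each other. The members of this paragraph and the last were named after their values were seen, where they are not in a list.

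None of the 18 opposite features was more than 1 lower in replicate 4, Vps52 being the lowest at -0.92. This is close to the share of all genes with a gene opposite, of which 10.4% of 3348 were more than 1 lower. Some of the features, such as Lrsam1 with 2 to 5 counts, lie under the 10 counts asked of the members. Tlcd1 differed by 0.07 in replicate 4 on the log2 CPM scale where Rpl23a differed by -1.71. Wdr38 differed by 0.31 where Rpl35 differed by -0.63.

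**Figure D3:**
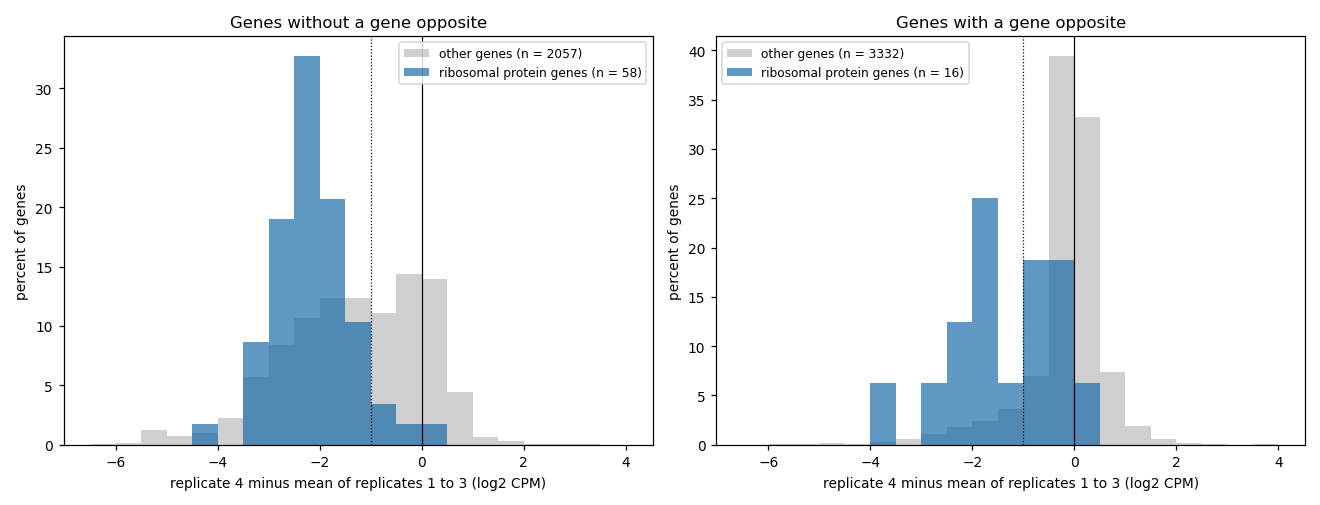
Percent of genes by the difference in log2 CPM between replicate 4 and the mean of replicates 1 to 3, where each of those held at least 10 counts; blue bars are ribosomal protein genes (58 without and 16 with a gene opposite), grey bars the other genes, the solid line is 0 and the dotted line -1. Ribosomal protein genes without a gene opposite centre near -2.07, and 4 of them lie right of the dotted line.

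The spread between replicates was tested with edgeR, each gene's quasi-dispersion against the trend. None of the 59 members that passed the expression filter was called (Benjamini-Hochberg adjusted p under 0.05), and neither was any of the 4190 genes tested (0%). At an unadjusted p under 0.05 there were 32 members, against 6.4% of all genes, and the smallest adjusted p among members was 0.53. Without replicate 4, 1 member was called, Rps4x (adjusted p = 0.034), which had 90, 202 and 134 counts in replicates 1 to 3, against 0.399% of 5007 genes. With no filter on low counts, 32 members were called, against 2.01% of 17203 genes. DESeq2 size factors (0.0239% of genes) and limma-trend (0%) called 0 members.

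Translation genes outside the symbol rule were read the same way. Of 7 ribosomal proteins with other names, 6 were above 1 TPM (32.1% of all genes), and replicate 4 was over 1 lower for 4 of the 5 eligible ones (55.9% of genes without and 10.4% with a gene opposite). Rps3a1, of the small subunit, had 115, 127, 111 and 15 counts and Rack1, the signalling scaffold on the small subunit, had 105, 169, 144 and 14. Fau, which encodes S30, had 43, 70, 72 and 29.

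All 6 elongation genes were above 1 TPM, against 32.1% of all genes. Eef1a1, which brings aminoacyl-tRNA to the ribosome, had 827, 1014, 928 and 167 counts, a level of 215 ± 120 TPM, the same order as the highest ribosomal protein genes. Eef2, the translocase, had 295, 414, 388 and 87 counts, a level of 64.7 ± 34.0 TPM. Eif5a was at 46.2 ± 21.9 and Eef1g at 29.3 ± 10.4 TPM. Every one of the 6 was over 1 lower in replicate 4, against 55.9% of genes without and 10.4% with a gene opposite.

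Ribosome biogenesis genes were above 1 TPM in 19 of 26 cases and below in 0, against 32.1% and 26.6% of all genes. Npm1, a nucleolar chaperone, had 877, 1125, 1096 and 178 counts, and Ncl, nucleolin, had 1307, 1611, 1588 and 322. Nolc1 was at 43.3 ± 14.7 TPM. Bysl, which acts in small-subunit maturation and has a gene opposite, had the highest level of the list at 542 ± 114 TPM, with 3019, 3115, 2654 and 2730 counts. Replicate 4 was over 1 lower for 10 of 12 eligible genes without a gene opposite (median -1.70) and for 5 of 11 with one, against 55.9% and 10.4%.

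Of 8 regulators of ribosomal protein messengers, 2 were above 1 TPM, near the 32.1% of all genes. These were Rps6kb2 at 10.3 ± 2.49 TPM and Larp1 at 9.31 ± 2.96 TPM. Myc, a factor that drives ribosomal protein transcription, had 42, 42, 41 and 1 counts and was not called (adjusted p = 0.093), and Eif4ebp2 was at 1.77 ± 1.07 TPM.

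Mitochondrial ribosomal proteins serve the separate ribosome of mitochondria. The 52 without a gene opposite had medians of 2.99, 2.65, 1.73 and 0.87 TPM in replicates 1 to 4, and 19 were above 1 TPM, against 18.7% of all such genes. Replicate 4 was over 1 lower for 4 of 11 eligible ones, against 55.9%, and their median was -0.83, against -1.24. Initiation factor genes were taken by symbols opening with Eif, so the lists overlap, and Eif5a is also in the elongation list. The 40 without a gene opposite had medians of 6.29, 7.56, 5.59 and 1.08 TPM, and 24 were above 1 TPM (18.7% of all such genes). Of these, 25 of 29 eligible ones were more than 1 lower in replicate 4 (55.9%). The lists were set beside each other with no test between them.

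**Figure D4:**
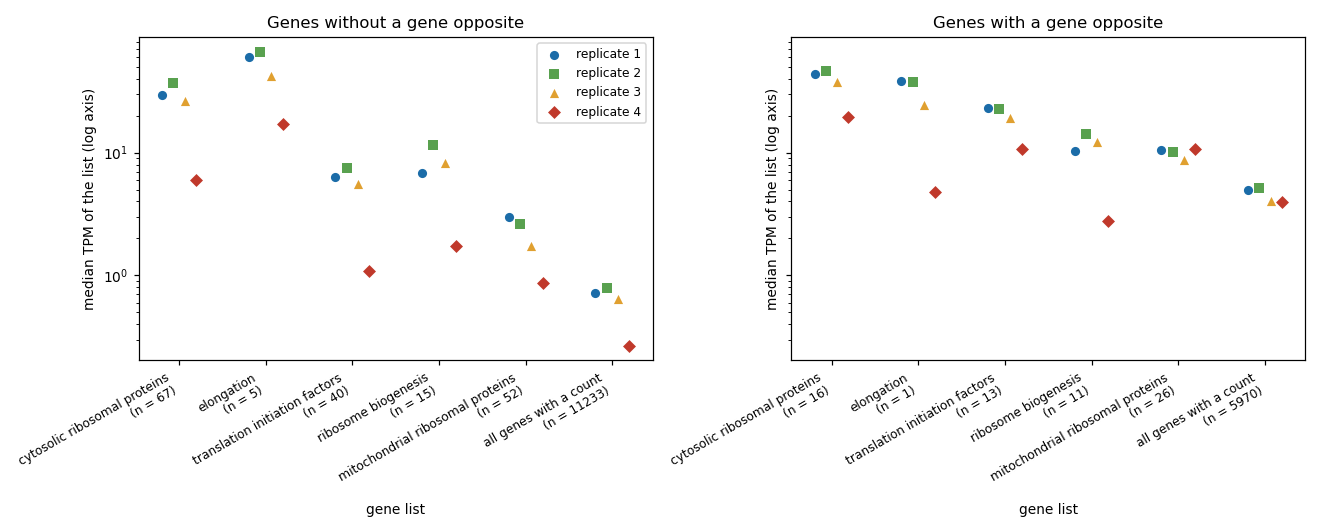
Median TPM (log axis) of 5 gene lists and of all genes with a count, in each library, for genes without (left) and with (right) a gene opposite. Each point is 1 library, and Eif5a is in both the elongation and the initiation factor list. On the left, replicate 4 is the lowest point of each of the 5 lists drawn, and among these 5 cytosolic ribosomal proteins and elongation genes have the highest medians in each library.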

How the data were processed

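Per the file headers, the deposited values are raw counts of paired fragments per gene, made with featureCounts 1.4.6-p4 over exons of GENCODE M13 with strand setting 1 and without counting multiply placed reads or reads of 2 genes; the labels name mm10 and the headers an alignment called star2, version not given in the sources used here. The assay is labelled total RNA-seq and its protocol names poly(A) RNA. Symbols matched 50376 of 50600 gene IDs, and the other 224 held at most 0.493% of a library's counts. Exon bases shared between strands were computed from the deposited coordinates. Depth was 1804217 to 2711948 counts per library, and a count of 0 allows 3 counts (counting error only).

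TPM was count over exon length, rescaled. Levels (pseudocount 0.1) and ratios of opposite feature to gene (offset 0.5, at least 50 shared bases) were tested with limma 3.58.1, one-sample and two-sided, and spread with edgeR 4.0.16, each over all genes with Benjamini-Hochberg adjustment at 0.05. Differences between replicates used log2 CPM, prior 0.5. R 4.3.3, DESeq2 1.42.0 and Python 3.11.15 served as well. On simulated counts, the level test called 100% of 200 genes at 8 TPM and the ratio test 100% of 200 pairs differing 4-fold. The spread test called 73.5% of 200 genes lowered 6-fold in 1 library. Only those 200 genes were lowered there, whereas in the data 28% of 5463 genes were more than 1 lower in replicate 4 on the log2 scale. The 73.5% therefore does not tell how many such genes the spread test would call in these libraries.

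The members, lists and tests were chosen with earlier results of these data known. Named genes are the 6 highest and 4 lowest members without a gene opposite, the 6 highest with one, members with an opposite feature of a mean count of at least 1000, the stalk, 5S and second-copy lists, members called variable, and up to 4 highest genes of each other list. Alternatives were other pseudocounts, levels, filters, offsets, overlap limits, tools and scalings, and leaving out each replicate. Some genes that entered the fits and counts are not reported by name here and are left out of the figures that name genes.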

Additional observations from a re-analysis of the deposited data

Results flagged for a closer look

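In 4 of 26 named members, 1 library lay far from the other 3, by the gap to its nearest neighbour over the whole range (past Dixon's critical value for 4 libraries, which chance exceeds about 1 time in 20). For Rpl12 the ratio was 0.873 and for Rpl32 0.878 in TPM, in both with replicate 4 the low library. For Rpl39l and Rpl6l it was 1.000, since all their counts, 2 and 1, fell in a lone library. Among the opposite features, Vps52 gave 0.863 in CPM, with 9 counts in replicate 4 against 15 to 21, and Trappc4 gave 0.870, with replicate 3 low in CPM. Snhg9 gave 1.000 from 1 count.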

How the results depend on the processing

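Of 59 values for the main counts and medians, 7 were as reported, 50 alternatives stayed within the limit set (1.5 times a count, 1 SD of a median) and 2 moved. Members called variable went from 0 to 32 with no filter on low counts, and from 0 to 1 over the fits without each replicate. Members above 1 TPM ranged from 71 to 76 with a replicate left out, and were 62 against 5 TPM. The median level without a gene opposite ran from 4.08 to 4.94 and that with one from 4.99 to 5.41 on the log2 scale over the same fits, the highest both without replicate 4. Members with opposite features above them were 6 in each, 8 with all features and 4 with features sharing at least 1 base excluded, where the ratio of Rpl35 reversed to -0.65 because Wdr38 left the comparison. The level of Rps27l relative to the level tested turned to -0.51 at 5 TPM, by construction. The limit of about 1.11 to 1.66 CPM bounds what could be seen of the second copies. No paired analysis was possible because the series has 1 group.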
